A study of Mus musculus with 10 samples.

Results

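The NRF2 antioxidant genes examined here are 9 genes chosen by their symbols: Nfe2l2, Keap1, Nqo1, Gclc, Gclm, Hmox1, Txnrd1, Srxn1 and Slc7a11. All 9 were found among the 24421 genes of the deposited count table, and all 9 were among the 13688 genes that passed the filter on low counts. RNA was sequenced from a piece of the tail of the pancreas of female mice aged 12 weeks, as 10 libraries, each from 1 mouse. All mice carried Ptf1aCreER, a Cre recombinase that needs tamoxifen and follows Ptf1a, a transcription factor gene of the enzyme-secreting acinar cells, together with the fluorescent nuclear reporter nTnG. The groups were Insr WT (Insrw/w, 0 floxed alleles of the insulin receptor gene, 3 mice), Insr Het (Insrw/f, 1 floxed allele, 3 mice) and Insr KO (Insrf/f, 2 floxed alleles, 4 mice). Controls therefore carried the Cre as well, and a floxed allele can be lost only in cells in which Cre was active. Whether and when tamoxifen was given is not stated in the sources used here. Libraries are named by group and mouse number, as in WT-2404.

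NRF2, the protein of Nfe2l2, is a transcription factor that is made and destroyed continuously. KEAP1 holds it for a cullin ubiquitin ligase, and oxidants or electrophiles that modify KEAP1 let NRF2 accumulate, pair with a small MAF protein and bind antioxidant response elements. Its targets make glutathione, recycle thioredoxin and peroxiredoxin, detoxify quinones and break down haem. Because NRF2 is controlled mainly at the protein level, the RNA of Nfe2l2 and the activity of the protein are different quantities, and only RNA was measured here. In the pancreas the pathway is known for its part in the response to oxidative injury.

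An antioxidant response element has the core TGACNNNGC, and this core was searched on both strands of RefSeq's promoter windows (build GRCm38.p6, 250 bases before to 50 after each annotated start). The windows matched 7 members, all but Gclc and Hmox1. The core was present in 4 of those 7 members, which is 4 of their 9 windows, while 12.4% of the 32851 windows of all genes held it. The 4 matches are shown because they are where the windows of the regulator's own gene and of 3 target genes carry these letters. Capitals mark the core as it reads on the strand of the gene, so a match on the opposite strand reads GCNNNGTCA. Each is written 5′ to 3′.
Nfe2l2: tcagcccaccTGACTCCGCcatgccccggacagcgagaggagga
Gclm: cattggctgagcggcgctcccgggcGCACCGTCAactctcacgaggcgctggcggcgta
Txnrd1: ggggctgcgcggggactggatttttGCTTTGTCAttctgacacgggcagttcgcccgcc
Srxn1: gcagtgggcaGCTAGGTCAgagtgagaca
The Nfe2l2 stretch lies at chr2:75704870-75704913 on the minus strand, with the core beginning 240 bases before the start. The Gclm stretch lies at chr3:122245398-122245456 on the plus strand and its core begins 134 bases before the start. The Txnrd1 stretch lies at chr10:82859089-82859147 on the plus strand, in 1 of the gene's 3 windows, and its core begins 92 bases before that start. The Srxn1 stretch lies at chr2:152105542-152105570 on the plus strand, and its core begins 28 bases after the start. None of the 4 matches overlapped the related AP-1 element TGANTCA, with which the response element shares its first bases. A match describes letters and not binding, and the windows of Keap1, Nqo1 and Slc7a11 hold no match in these 300 bases.

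Insr itself was at 21.0 to 40.5 CPM in WT, 28.2 to 44.2 CPM in Het and 22.7 to 35.4 CPM in KO libraries, so the groups overlapped (KO against WT log2 fold change 0.09, SE 0.26, edgeR adjusted p = 0.864). Counts over the whole gene in a tissue piece of many cell types do not show whether the floxed part was lost in acinar cells, and so they do not check the labels. Library depth was 11718559 to 18588327 gene counts in WT, 13725964 to 19024351 in Het and 12028969 to 18191235 in KO libraries. Levels are given as CPM, counts-per-million of the library size scaled by TMM, a factor that sets most genes equal between libraries. Acinar enzyme genes took 58.6% to 77.7% of the counts in 9 libraries and 15.9% in WT-2404. That library therefore stands apart, and its TMM factor of 3.53 was the highest. The share of 58.6% was that of WT-1860, which also lay below every Het and KO library (62.6% to 77.7%). From the WT group only WT-2067, at 71.8%, fell inside that range. Comparisons with WT therefore also compare libraries that differ in enzyme share. In a piece of tissue, fewer cells of a type and less RNA per cell cannot be told apart. Acinar markers stood for the labelled tissue in all libraries, except Amy2a2, Amy2a3 and Amy2a4, copies of the pancreatic amylase gene, which were at 0 in all 10, and Amy2a5, at 0 in 7. No gene passed an adjusted p of 0.05 by edgeR's quasi-likelihood test in any of the 3 comparisons (0 genes, 0% of those tested), so "higher" and "lower" below describe values and name no called change.

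The regulator and its repressor are described first. Nfe2l2 lies on chromosome 2 (75675513 to 75704641, minus strand, GRCm38) and stood at 30.2 CPM in WT-2067, 38.6 CPM in WT-1860 and 54.0 CPM in WT-2404. In the Het libraries it was at 21.7, 27.0 and 36.7 CPM. In the KO libraries it was at 21.5, 21.8, 26.1 and 29.9 CPM. Every KO library lay below every WT library, as for 9.17% of all tested genes, by a narrow margin of 29.9 against 30.2 CPM. The Het libraries overlapped both groups. The log2 fold change of KO against WT was -0.72 (SE 0.24, unadjusted p = 0.0102, edgeR adjusted p = 0.127), and that of Het against WT was -0.52 (SE 0.26, edgeR adjusted p = 0.271). With the acinar enzyme share of each library as a covariate the KO value was -0.39 (edgeR adjusted p = 0.741), and without WT-2404 it was -0.46. Without WT-2067 it was -0.89 and passed, with an edgeR adjusted p of 0.0338, in a fit where 1933 of 14172 tested genes passed. The WT libraries left in that fit are WT-2404 and WT-1860, which have the lowest enzyme shares of all libraries (15.9% and 58.6%). This holds for every fit without WT-2067 below.

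Keap1, which lies on chromosome 9 (21229730 to 21239361, minus strand), encodes the sensor that marks NRF2 for destruction. It stood at 16.3 to 18.5 CPM in the WT libraries, at 16.1 to 24.2 CPM in the Het libraries and at 15.7 to 21.4 CPM in the KO libraries. The groups overlapped fully. Its fold change on the log2 scale was 0.15 (SE 0.18, edgeR adjusted p = 0.638) in KO and 0.19 (SE 0.19, edgeR adjusted p = 0.592) in Het libraries against WT. An antisense gene shares 510 exonic bases with Keap1 in GENCODE M21, and the strand setting of the counting is not given in the sources used here.

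The ratio of Nfe2l2 to Keap1 counts within a library does not depend on how libraries are scaled. Its WT values were 1.63 (WT-2067), 2.37 (WT-1860) and 3.08 (WT-2404). It was 1.12, 1.35 and 1.90 in the Het libraries and 1.04, 1.10, 1.40 and 1.66 in the KO libraries. The lowest WT library lay inside the KO range and the groups overlapped. The mean log2 ratio was 1.19 ± 0.46 for WT mice (SD, n = 3), 0.51 ± 0.39 for Het mice (SD, n = 3) and 0.35 ± 0.31 for KO mice (SD, n = 4). The difference KO minus WT of -0.84 had p = 0.0857 by exact permutation over mice (two-sided, 0.2 after adjustment over the 6 ratio tests), where the smallest possible p is 0.0286. The Het minus WT difference of -0.68 had an exact p of 0.2, where 3 against 3 mice cannot go below 0.1.

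**Figure D1:**
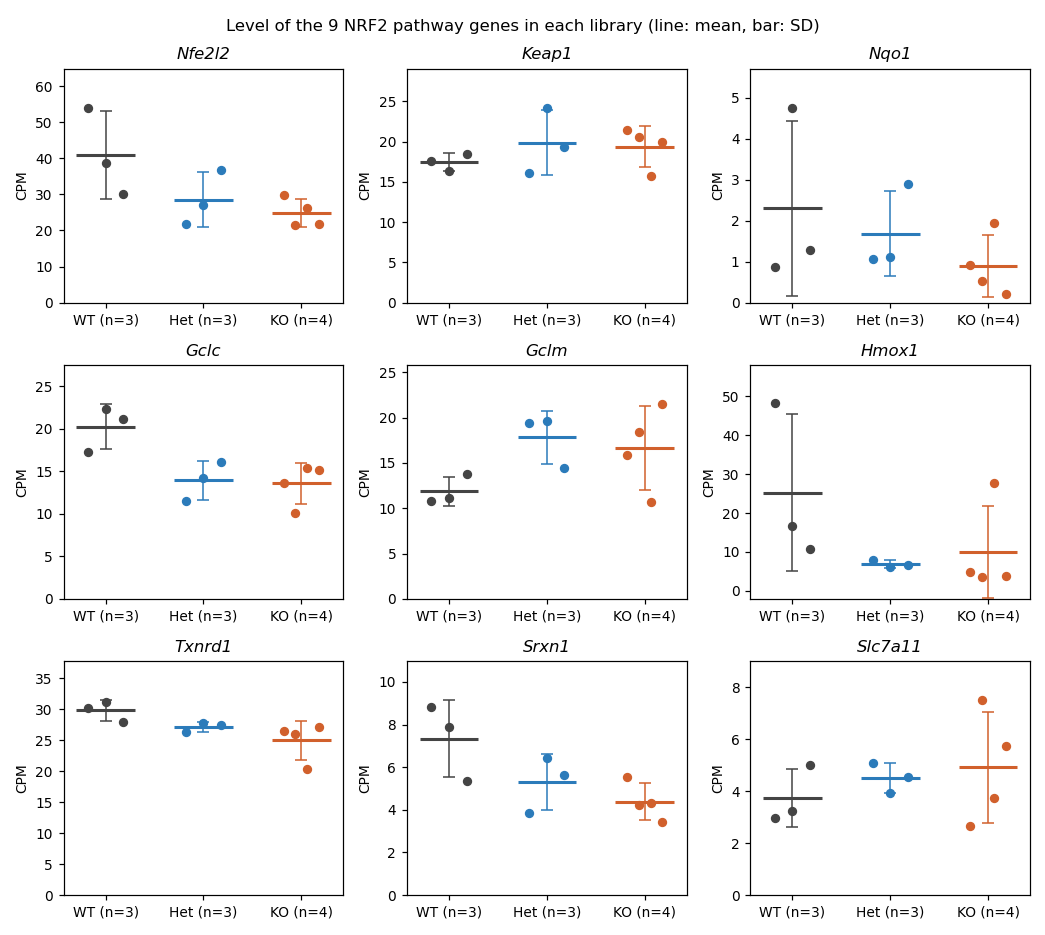
Level of each gene in CPM (y axis) in the WT, Het and KO libraries (x axis), with 1 point per mouse, the group mean as a line and the SD as a bar. Gclc lay below all WT points in every Het and KO library, and Hmox1 had 1 high WT library at 48.4 CPM and 1 high KO library at 27.8 CPM.

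Glutathione is made in a first and limiting step by glutamate-cysteine ligase, whose catalytic subunit is the product of Gclc and whose modifier subunit is the product of Gclm. In Het and KO libraries Gclc lay below the WT level and Gclm mostly above it. Gclc (chromosome 9, 77754535 to 77794485, plus strand) was at 17.2, 21.1 and 22.4 CPM in the WT libraries. It was at 11.5, 14.3 and 16.1 CPM in the Het libraries and at 10.1, 13.7, 15.1 and 15.4 CPM in the KO libraries. All 7 libraries with a floxed allele lay below all 3 WT libraries. Of all tested genes, 9.17% lay fully below WT in KO and 13.5% in Het libraries, and the share that did so in both was not counted. On the log2 scale the fold change was -0.57 (SE 0.19, unadjusted p = 0.0121, edgeR adjusted p = 0.130) in KO and -0.53 (SE 0.21, unadjusted p = 0.0244, edgeR adjusted p = 0.204) in Het against WT. With the enzyme share as a covariate it was -0.67 in KO and -0.64 in Het libraries (edgeR adjusted p = 0.655 and 0.887).

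Gclm (chromosome 3, 122245557 to 122270732, plus strand) was at 10.8, 11.1 and 13.7 CPM in the WT libraries, and at 14.5, 19.4 and 19.6 CPM in the Het libraries. Every Het library lay above every WT library, as for 11.3% of all tested genes. In the KO libraries it was at 10.6, 15.9, 18.4 and 21.5 CPM, so that 3 lay above all WT libraries and KO-2124 lay below them. On the log2 scale the fold change was 0.58 (SE 0.25, unadjusted p = 0.0352, edgeR adjusted p = 0.225) in Het and 0.48 (SE 0.23, edgeR adjusted p = 0.233) in KO against WT. Gclm shares 244 exonic bases with a transcribed pseudogene on its own strand and 296 with a transcript on the other, so its count is uncertain to that extent.

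The ratio of Gclc to Gclm counts was 1.54, 1.59 and 2.01 in the WT libraries. It was 0.593, 0.729 and 1.11 in the Het libraries and 0.550, 0.704, 0.860 and 1.45 in the KO libraries. No Het or KO library reached the lowest WT library. How often ratios of other gene pairs separate in this way was not counted. On the log2 scale the mean was 0.77 ± 0.21 for WT mice (SD, n = 3), -0.35 ± 0.46 for Het mice (SD, n = 3) and -0.26 ± 0.59 for KO mice (SD, n = 4). KO minus WT was -1.03, with p = 0.0571 by exact permutation (two-sided, 0.2 after adjustment over 6 ratio tests). The Het minus WT difference was -1.12, with p = 0.1 in the exact permutation test, as low as a test of 3 against 3 mice can go. Leaving out single libraries gave -1.30 to -0.83 for KO and -1.37 to -0.92 for Het against WT. KO and Het libraries differed by 0.09 on the same scale (exact permutation p = 0.857).

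**Figure D2:**
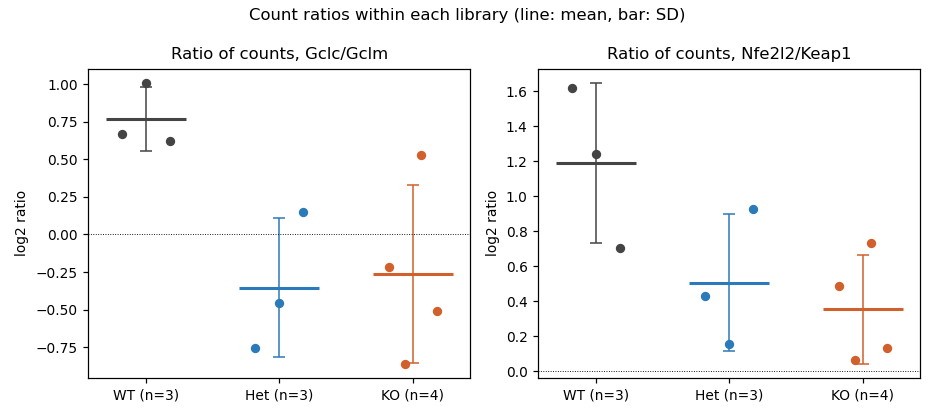
Log2 ratio of counts within each library (y axis) for Gclc over Gclm and for Nfe2l2 over Keap1, by group (x axis), with 1 point per mouse, the mean as a line and the SD as a bar. The Gclc/Gclm ratio of all 7 Het and KO libraries lay below the 3 WT libraries, and the Nfe2l2/Keap1 ratio of the groups overlapped.

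Slc7a11 encodes the cystine transporter that brings in the cysteine for glutathione. It lies on chromosome 3 (49892526 to 50443614, minus strand) and was weakly counted, with 42 to 177 counts per library. It stood at 2.96, 3.23 and 5.02 CPM in WT, at 3.91, 4.54 and 5.09 CPM in Het and at 2.66, 3.73, 5.76 and 7.51 CPM in KO libraries. The widest spread was inside the KO group. Its fold change on the log2 scale was 0.38 (SE 0.35, edgeR adjusted p = 0.520) in KO and 0.29 (SE 0.37, edgeR adjusted p = 0.674) in Het against WT. Without KO-2070 the KO value was 0.11.

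Txnrd1 and Srxn1 serve the thioredoxin system. Txnrd1, the cytosolic thioredoxin reductase (chromosome 10, 82833951 to 82897712, plus strand), was at 28.0, 30.3 and 31.2 CPM in the WT libraries and at 26.3, 27.5 and 27.8 CPM in the Het libraries. It was at 20.4, 26.1, 26.5 and 27.1 CPM in the KO libraries. All Het and KO libraries lay below all WT libraries, by a small amount apart from KO-2124. Fully below WT lay 9.17% of all tested genes in KO and 13.5% in Het libraries. On the log2 scale the fold change was -0.26 (SE 0.16, edgeR adjusted p = 0.329) in KO and -0.13 (SE 0.17, edgeR adjusted p = 0.670) in Het against WT.

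Srxn1 encodes sulfiredoxin, which restores over-oxidised peroxiredoxins (chromosome 2, 152105516 to 152111376, plus strand). It was at 5.33, 7.87 and 8.82 CPM in the WT, at 3.86, 5.65 and 6.43 CPM in the Het and at 3.43, 4.21, 4.33 and 5.56 CPM in the KO libraries. WT-2067 overlapped both other groups. For KO against WT, the log2 difference was -0.74 (SE 0.26, unadjusted p = 0.0141, edgeR adjusted p = 0.135), and that of Het against WT was -0.47 (SE 0.28, edgeR adjusted p = 0.340). Without WT-2067 the KO value was -0.91 and passed, with an edgeR adjusted p of 0.0426, where 1933 of 14172 tested genes passed.

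Nqo1 encodes a quinone reductase often used as a readout of NRF2 activity (chromosome 8, 107388225 to 107403206, minus strand). It was thinly counted, with 2 to 87 counts per library. It stood at 0.868, 1.29 and 4.76 CPM in WT, at 1.05, 1.12 and 2.88 CPM in Het and at 0.202, 0.527, 0.927 and 1.94 CPM in KO libraries. The highest WT library, WT-1860, stood far above the other WT libraries and the groups overlapped. For KO against WT, the log2 difference was -1.23 (SE 0.72, edgeR adjusted p = 0.311) and was -0.15 without WT-1860. The Het against WT value was -0.40 (SE 0.76, edgeR adjusted p = 0.783), and without WT-1860 its sign turned, to 0.68. In KO against WT its unadjusted p was under 0.05 without WT-2404, without KO-2124 and without both, so single libraries moved it across that level.

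Hmox1 encodes haem oxygenase 1, which breaks down haem and is abundant in macrophages that clear red cells (chromosome 8, 75093621 to 75100589, plus strand). It was at 10.8 CPM in WT-2067, 16.6 CPM in WT-1860 and 48.4 CPM in WT-2404. It was at 6.06, 6.63 and 7.98 CPM in the Het libraries. In the KO libraries it was at 3.56, 3.94 and 4.94 CPM, apart from KO-2124 at 27.8 CPM. All Het libraries and 3 of the 4 KO libraries lay below all WT libraries, where 13.5% of all tested genes lay fully below WT in Het libraries. On the log2 scale the fold change was -1.89 (SE 0.81, unadjusted p = 0.0402, edgeR adjusted p = 0.234) in Het and -1.29 (SE 0.72, edgeR adjusted p = 0.290) in KO against WT.

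The size of the Hmox1 difference rested on single libraries. In KO against WT it was -2.61 without KO-2124 and -0.38 without WT-2404, and with the enzyme share as a covariate it was -0.16 (edgeR adjusted p = 0.974). In Het against WT it was -0.98 without WT-2404 and -0.62 with that covariate (edgeR adjusted p = 0.932). Without both WT-2404 and KO-2124, a choice made after the values were seen, Hmox1 was at 13.7 ± 4.05 CPM over the WT mice (SD, n = 2), 6.89 ± 0.988 over the Het mice (SD, n = 3) and 4.15 ± 0.717 over the KO mice (SD, n = 3).

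Macrophage markers, and below them blood cell genes, were set beside Hmox1 in each library. The 12 macrophage markers summed to 485 to 1980 CPM in WT, 264 to 396 CPM in Het and 151 to 564 CPM in KO libraries, and all 12 were counted in every library. All 12 were lower in KO than in WT libraries, 11 of them at an unadjusted p under 0.05, where 13.9% of all tested genes were lower at that level. In KO-2124 Hmox1 was high and the macrophage sum was 564 CPM, beside 476 CPM in KO-2079, a library with 4.94 CPM of Hmox1. Hmox1 came to 4.93% of the macrophage sum in KO-2124 and to 1.04% to 3.02% in the other 9 libraries. The 9 lymphoid markers summed to 45.7 CPM in KO-2124 and to 7.47 to 21.1 CPM in the rest of the KO group. Their sum was 41.4 to 76.7 CPM in WT, highest in WT-1860, and 19.3 to 21.4 CPM in Het libraries.

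Another pair of lists was written after these values were seen and carries no test. The first holds 11 genes known from red cell precursors, such as Slc4a1, the red cell anion exchanger, and Klf1, their transcription factor. They summed to 165 CPM in KO-2124, 136 CPM in WT-2404, 55.0 CPM in WT-1860 and 7.07 to 39.0 CPM in the other 7 libraries. Slc4a1 alone stood at 73.4 CPM in KO-2124 and 57.6 CPM in WT-2404, against 0.404 to 1.84 CPM in the other 3 KO libraries. The other list holds 5 genes known from the red pulp macrophages of the spleen, among them Spic, their transcription factor, and Cd5l. They summed to 68.9 CPM in WT-2404, 64.7 CPM in KO-2124, 36.1 CPM in WT-1860 and 8.99 to 21.1 CPM in the other 7 libraries. Spic was highest in KO-2124 at 2.17 CPM, followed by WT-1860 at 0.984 CPM and WT-2404 at 0.935 CPM, and had 0 counts in KO-2070 and KO-2126. The part of such cells in the Hmox1 values was not tested.

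**Figure D3:**
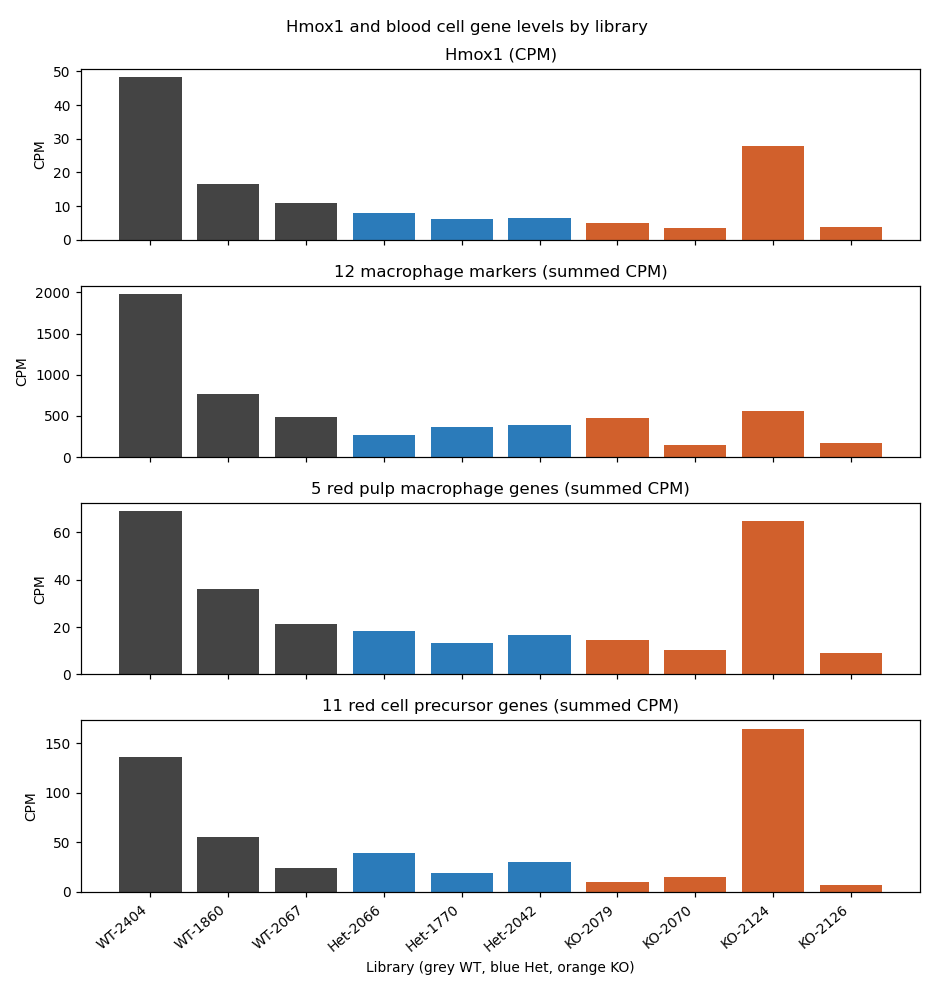
Hmox1 level and summed levels of 3 gene lists (y axes, CPM) in each of the 10 libraries (x axis, bars coloured by group). KO-2124 is high in Hmox1 (27.8 CPM), in the red pulp genes (64.7 CPM) and in the red cell precursor genes (165 CPM), while its macrophage marker sum of 564 CPM is near that of KO-2079.

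Read together by comparison, 6 of the 9 members were lower and 3 higher in KO than in WT libraries, with a median log2 fold change of -0.57 where the median of all 13688 genes was 0.03. At an unadjusted p under 0.05, 3 were lower (Nfe2l2, Gclc and Srxn1) and 0 higher, beside 13.9% of all tested genes lower and 9.60% higher. The ranges lay fully below those of WT for 3 members (Nfe2l2, Gclc and Txnrd1), which 9.17% of all genes did, and fully above for 0, which 6.74% did. The counts of ranges were not repeated in other settings. With library size alone, before the median of all genes was subtracted, 0 members were higher. The count of members at an unadjusted p under 0.05 changed between settings, as did that of all tested genes, 3221 of 13688 here in either direction. It was 6 without KO-2124 (3802 of 13441 genes) and 4 without WT-2067 (Nfe2l2, Gclc, Gclm and Srxn1, beside 4600 of 14172 genes). It was 2 without WT-2404 (Nqo1 and Gclc, beside 1297 of 13768 genes) and 1 with the enzyme share as a covariate (Gclc, beside 985 of 13688 genes). Gclc was among them in each of these. With both WT-2404 and KO-2124 left out it was 4 (Nqo1, Gclc, Gclm and Hmox1), beside 2282 of 13478 genes. Scaled by library size alone, where the median of all genes itself was -1.17, 4 genes were higher and 6287 lower at that level, beside 1314 and 1907 here.

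In Het against WT libraries, 6 members were again lower and 3 higher, with a median of -0.40 beside 0.0047 for all genes. Those at an unadjusted p under 0.05 were Gclc and Hmox1, which were lower (11.6% of all genes), and Gclm, which was higher (8.26% of all genes). Ranges lay fully below WT for 3 members, Gclc, Hmox1 and Txnrd1 (13.5% of all genes), and fully above for Gclm alone (1 member, 11.3% of all genes). In either direction, 2714 of all 13688 tested genes were at that level. None of the 9 remained there without Het-2066 (beside 1564 of 14214 genes) or without Het-1770 (1850 of 14177), 0 members each. Without WT-2404 there was 1 (Gclc, beside 1083 of 13768 genes), and 1 without WT-1860 (Hmox1, beside 2055 of 13889). There were 4 without WT-2067 (Nfe2l2, Gclm, Hmox1 and Srxn1, beside 4263 of 14172 genes). Without Het-2042 there were 3 (Nfe2l2, Gclc and Gclm, beside 2489 of 14142 genes). With the enzyme share as a covariate it was Gclc alone, beside 701 of 13688 genes. The comparisons of KO and of Het with WT share their WT libraries, so their values are not independent of each other.

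KO and Het libraries lay close together. Their log2 fold changes ran from -0.83 (SE 0.74) for Nqo1 to 0.59 (SE 0.76) for Hmox1, and the other 7 lay between -0.27 (Srxn1, SE 0.27) and 0.09 (Slc7a11, SE 0.35). None of the 9 had an unadjusted p under 0.05, beside 0.351% of all genes lower and 0.402% higher, and the ranges of every member overlapped, beside 1.16% and 1.30% of all genes lying fully below or above. The Hmox1 value turned to -0.73 without KO-2124. With WT-2404 and KO-2124 both left out 2 members, Nqo1 and Hmox1, had an unadjusted p under 0.05, beside 191 of 13478 tested genes.

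**Figure D4:**
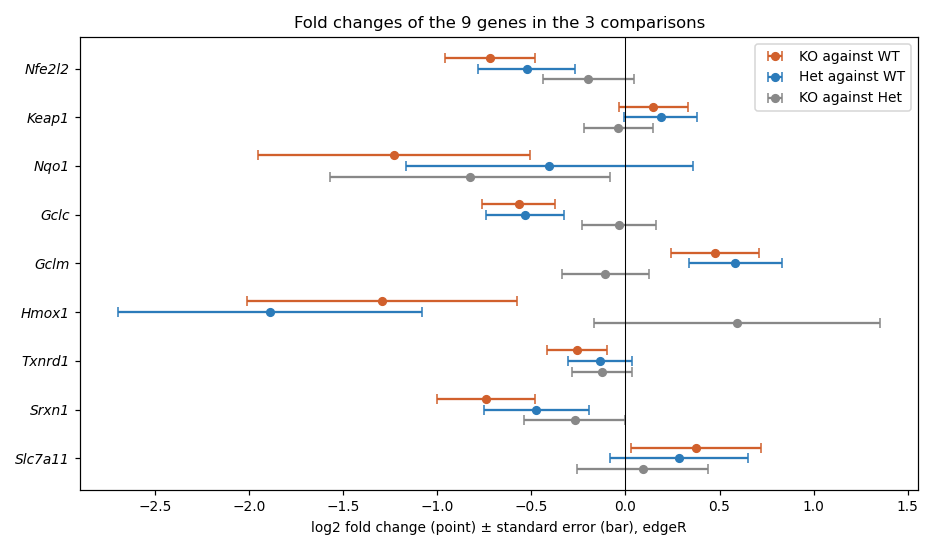
Log2 fold change of each gene (x axis, point) with its standard error (bar) for KO against WT, Het against WT and KO against Het (colours). Nfe2l2, Gclc, Srxn1, Txnrd1, Nqo1 and Hmox1 lie left of 0 and Gclm, Keap1 and Slc7a11 right of it in both comparisons with WT, and none passed the adjusted threshold.

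Levels of different genes can be set side by side only per length, here as CPM per kilobase of merged GENCODE M21 exons. On that scale Hmox1 had the highest mean in WT (14.4 ± 11.6, n = 3), with an SD nearly as large as the mean, and stood at 3.93 ± 0.564 over the Het mice (SD, n = 3) and 5.74 ± 6.76 over the KO mice (SD, n = 4). Nfe2l2 was at 10.8 ± 3.19 over the WT mice (SD, n = 3), 7.50 ± 2.0 over the Het mice (SD, n = 3) and 6.54 ± 1.05 over the KO mice (SD, n = 4), and it ranked first of the 9 in 8 libraries. Hmox1 ranked first in the other 2, WT-2404 and KO-2124, at 27.6 and 15.9 CPM per kilobase. In the WT libraries Gclc (5.37 ± 0.710, n = 3), Txnrd1 (4.21 ± 0.234, n = 3) and Keap1 (3.72 ± 0.236, n = 3) followed, with neighbours apart by more than the SD of either. In the Het libraries Keap1 (4.24 ± 0.869, n = 3), Txnrd1 (3.84 ± 0.109, n = 3) and Gclc (3.70 ± 0.614, n = 3) lay within 1 SD of a neighbour. In the KO libraries the order was Keap1 (4.13 ± 0.537, n = 4), Gclc (3.61 ± 0.643, n = 4) and Txnrd1 (3.53 ± 0.439, n = 4), all within 1 SD of a neighbour. Gclm, at 1.89 in WT and 2.83 in Het libraries, Srxn1, at 2.60 and 1.88, and Nqo1, at 1.48 and 1.08, had lower means. Slc7a11 ranked last in 8 libraries and Nqo1 in 2, and Slc7a11 was at 0.268 ± 0.0807 over the WT mice (SD, n = 3) and 0.353 ± 0.155 over the KO mice (SD, n = 4).

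The fold changes of members with the core element in their promoter window are given as values only, since none passed the adjusted threshold. Of the stretches printed above, those of Nfe2l2, Srxn1 and Txnrd1 belong to genes with KO against WT log2 fold changes of -0.72, -0.74 and -0.26, and that of Gclm to a gene at 0.48. Keap1, Nqo1 and Slc7a11, without a match in the window, stood at 0.15, -1.23 and 0.38. Gclc and Hmox1 had no window, and sequence outside the windows was not searched. A link between a match and a fold change was not tested.

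For each member, the tested gene with the most similar log2 CPM over the 10 libraries was identified by Pearson correlation, as a description without a test, since it is the best of 13687 candidates. For Nfe2l2 it was Pbxip1 (r = 0.986, Spearman rho = 0.976, and r = 0.961 without the 2 libraries farthest from the median). For Hmox1 it was Cenpf, a gene of dividing cells (r = 0.981, rho = 0.964, and 0.944 without WT-2404 and KO-2124). Gclm was most like Abcd3 (r = 0.975) and Gclc most like Paqr5 (r = 0.928), Srxn1 like Elovl5 (r = 0.971), Txnrd1 like Lad1 (r = 0.939), Slc7a11 like Dcun1d4 (r = 0.958), Keap1 like Ildr1 (r = 0.926) and Nqo1 like Dos (r = 0.938). None of the 9 was closest to another member. The other members are few among the 13687 candidates, so this does not show whether the members vary together. The libraries share the differences in cell makeup described above, which such a correlation also follows.

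Other genes of the pathway were examined in 5 lists ordered by role, with no gene passing the adjusted threshold by edgeR (0 genes in each). Among 9 regulators and partners of NRF2, 7 were higher and 2 lower in KO than in WT libraries, with a median log2 fold change of 0.23. At an unadjusted p under 0.05 there was 1, which was higher, a share near the 9.60% of all tested genes that were higher at that level. That gene was Rbx1, the ring subunit of the ligase that KEAP1 serves, at 18.8 ± 1.52 CPM over the KO mice (SD, n = 4) and 14.4 ± 0.976 over the WT mice (SD, n = 3), which gave a log2 fold change of 0.39 (SE 0.15, edgeR adjusted p = 0.158). Mafk, a small MAF partner, was at 0.43 (SE 0.26, edgeR adjusted p = 0.318).

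The next list was drawn up for the supply of NADPH, the reductant of both the glutathione and thioredoxin systems. Its genes all had values below 0 in KO against WT (6 of 6, median -0.76). At an unadjusted p under 0.05 there were 4, beside 13.9% of all tested genes. Tkt and Taldo1 in this list do not themselves make NADPH, and Taldo1 was level between the groups (log2 fold change -0.03, SE 0.23). Pgd, an enzyme of the pentose phosphate pathway, was at 15.5 ± 3.15 CPM over the KO mice (SD, n = 4) and 33.3 ± 9.10 over the WT mice (SD, n = 3), which gave a log2 fold change of -1.10 (SE 0.26, edgeR adjusted p = 0.116). G6pdx, which makes the first step of that pathway, was at -0.90 (SE 0.27, edgeR adjusted p = 0.121). The ranges of both lay fully below those of WT, as for 9.17% of all tested genes. With the enzyme share as a covariate G6pdx was at -0.37 and Pgd at -0.81, and without WT-2404 G6pdx was at -0.44. Both passed under DESeq2 (adjusted p = 0.0125 for Pgd and 0.0477 for G6pdx) and by edgeR without WT-2067 (adjusted p = 0.0203 and 0.0259). In those settings 1009 of 13688 and 1933 of 14172 tested genes passed. Pgd and G6pdx were named for the smallest unadjusted p of their list in this same comparison. In Het against WT 5 of 6 were lower (median -0.60), 2 of them at an unadjusted p under 0.05, beside 11.6% of all tested genes.

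Among 13 genes of glutathione use and recycling, 8 were lower and 5 higher in KO libraries (median -0.53), with 5 lower (13.9% of all tested genes) and 1 higher (9.60% of all tested genes) at an unadjusted p under 0.05. Gss, which completes glutathione, was at -0.69 (SE 0.25, edgeR adjusted p = 0.141) and Gpx2, an epithelial glutathione peroxidase, at -1.73 (SE 0.67, edgeR adjusted p = 0.164). The thioredoxin, peroxiredoxin and superoxide enzymes were mixed, with 8 of 14 higher (median 0.18), 3 higher (9.60% of all tested genes) and 3 lower (13.9%) at an unadjusted p under 0.05. Prdx4, the peroxiredoxin of the endoplasmic reticulum, was at 188 ± 47.5 CPM over the KO mice (SD, n = 4) and 69.7 ± 52.7 over the WT mice (SD, n = 3), which gave a log2 fold change of 1.44 (SE 0.48, edgeR adjusted p = 0.129). Prdx1, its cytosolic relative, was at -0.83 (SE 0.27, edgeR adjusted p = 0.124). With the enzyme share as a covariate Prdx4 was at 0.84 and Prdx1 at -0.55, with edgeR adjusted p values of 0.668 and 0.711. Both passed under DESeq2 (adjusted p = 0.0322 for Prdx4 and 0.0379 for Prdx1) and by edgeR without WT-2067 (adjusted p = 0.0203 and 0.0298). Of all tested genes, 1009 of 13688 and 1933 of 14172 passed in those settings. Prdx4 and Prdx1 were also named for the smallest unadjusted p of their list.

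Of 15 genes of haem breakdown, iron storage and detoxification, 12 were lower and 3 higher in KO libraries (median -0.41), 4 lower (13.9% of all tested genes) and 0 higher (9.60%) at an unadjusted p under 0.05. Akr1b8, an aldo-keto reductase, was at -1.45 (SE 0.48, edgeR adjusted p = 0.128) and Ptgr1, a reductase of reactive aldehydes and prostaglandins, at -1.28 (SE 0.44, edgeR adjusted p = 0.133). Akr1b8 passed under DESeq2 (adjusted p = 0.0472), where Ptgr1 did not (adjusted p = 0.0584) and 1009 of 13688 tested genes passed. Without WT-2067 both passed by edgeR (adjusted p = 0.0469 and 0.0493), where 1933 of 14172 tested genes passed. Akr1b8 and Ptgr1 were named for the smallest unadjusted p of their list. With the enzyme share as a covariate Akr1b8 was at -1.04 and Ptgr1 at -0.86 (edgeR adjusted p = 0.714 and 0.725). In Het against WT this list had a median of -0.09 and the glutathione list one of -0.12. Markers of other cells also lay higher or lower in these libraries. In KO against WT, 8 of 10 ductal and 10 of 11 fibroblast markers were lower, 7 of each at an unadjusted p under 0.05 (13.9% of all tested genes lower), and 28 of 28 tested acinar markers were higher, 1 of them at that level (9.60% of all tested genes higher). All 9 lymphoid markers were lower, 4 of them at that level, and 10 of 11 islet markers were higher, 0 of them at that level. The ductal markers summed to 1089 to 1640 CPM in WT, 564 to 942 CPM in Het and 570 to 936 CPM in KO libraries, and none was at 0 in any library. The part of these cells in the values of the antioxidant genes was not tested beyond the fits with the enzyme share.

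**Figure D5:**
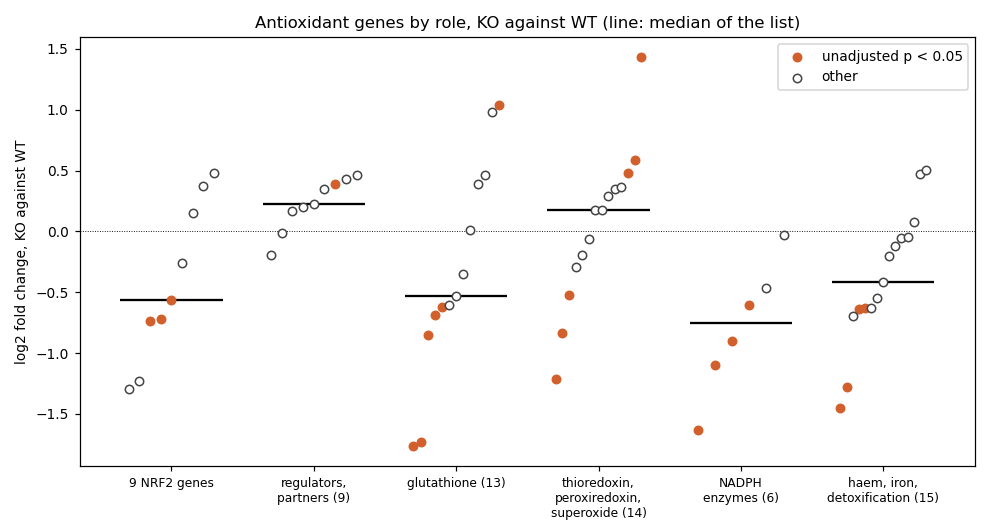
Log2 fold change of KO against WT (y axis) for each gene of 6 lists (x axis), with the list median as a line and genes at an unadjusted p under 0.05 filled. All 6 genes of the NADPH list lie below 0, Taldo1 only just, and the regulators lie mostly above it, with medians of -0.76 and 0.23.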

How the data were processed

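The authors deposited a table of raw counts per gene symbol, whole numbers, 1 column per mouse. Per the submitters' processing notes, the build was mm10 and the tools DRAGEN, STAR and Cufflinks, with no roles given. The counting tool, annotation and use of strand are not given in the sources used here. Per the labels' protocols, libraries were stranded mRNA libraries. A label counts 1 WT mouse more, not analysed here, and 1 more allele, which every group carried, is not reported here.

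All 10 columns were matched to samples by genotype and mouse number (0 left over). Library sizes and tests left out the 2 rows without a gene name, which held 2.59% to 8.71% (reads outside genes) and 0.101% to 0.584% (ambiguous reads) of counts. Genes passed filterByExpr (minimum count 10), were scaled by TMM and tested over all 10 libraries with edgeR 4.0.16 (quasi-likelihood, robust, two-sided, R 4.3.3), with Benjamini-Hochberg adjustment and a threshold of 0.05. Standard errors come from the quasi-F statistic. Log2 CPM used a prior count of 2. Alternatives were DESeq2 1.42.0, library size alone, enzyme genes left out, a looser filter, the enzyme share as a covariate, and each library left out. The fit was tested on simulated data. Nothing says that mice came from separate litters or days, and the p-values cover the spread between these mice. GENCODE M21 (GRCm38, the same assembly as mm10) gave positions and lengths. Members and lists were chosen with earlier results of these data known. All members are named, with the 2 genes of smallest unadjusted p per pathway list in KO against WT where none passed, and each member's most similar gene.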

Additional observations from a re-analysis of the deposited data

Results flagged for a closer look

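In the group of 4 KO libraries, 17 measures were checked with Dixon's test for 1 library set apart from the rest, and 2 showed one, where chance alone gives about 0.85. Both were in KO-2124. Hmox1 stood there at 27.8 CPM, against 3.56 to 4.94 CPM in the rest of the group. Txnrd1 stood there at 20.4 CPM and at 26.1 to 27.1 CPM in the others. Without this library the KO against WT log2 fold change of Txnrd1 was -0.19, beside -0.26 with it. Groups of 3 libraries were not tested.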

How the results depend on the processing

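No paired analysis was possible because the labels number mice individually and no number is shared between groups. By edgeR, neither KO nor Het libraries had a gene called against WT (0 each). DESeq2 called 1009 and 400, and library size alone called 2835 and 3125, where the median of all genes itself was -1.17 and -1.36 (log2). Leaving out single libraries gave 0 to 1933 and 0 to 1158 calls, and the highest counts were both without WT-2067. Without it, the WT group holds only the libraries of lowest enzyme share, WT-2404 (15.9%) and WT-1860 (58.6%). No member was called by DESeq2, whereas library size alone called Nfe2l2, Gclc, Txnrd1 and Srxn1 in both comparisons, and leaving out WT-2067 called Nfe2l2 and Srxn1 in KO against WT. The cause was not tested. Gclc in KO against WT ran from -0.74 to -0.46 over 16 alternatives, with library size alone taken relative to the median of all genes. The adjusted p ran from 0.0365 to 0.655 (edgeR or DESeq2). The lowest came from library size alone, where the test was made before that median was subtracted and so does not belong to a value in this range.

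Values with library size alone were taken relative to the median of all genes. Before that subtraction, 0 of the 9 members were higher in KO or in Het than in WT libraries, so Gclm, Keap1 and Slc7a11 were not. With those values taken after it, 1 member turned its sign against WT in any of the 16 alternatives, Nqo1 in Het libraries. That was in the TMM-scaled fit without WT-1860, at 0.68 (leave-one-out range -1.06 to 0.68). The other reversals, counted in the same way, were between KO and Het libraries. Leaving out single libraries, these values ran from -0.15 to 0.084 for Gclc, -0.26 to 0.039 for Gclm, -0.73 to 0.85 for Hmox1, -0.16 to 0.13 for Keap1, -0.36 to 0.030 for Nfe2l2 and -0.17 to 0.31 for Slc7a11. The log2 ratios ran from -0.18 to 0.34 for Gclc/Gclm and from -0.33 to 0.059 for Nfe2l2/Keap1. With WT-2404 and KO-2124 both left out, a choice made after seeing the data, Gclm was 0.048, Hmox1 -0.72, Keap1 0.041 and the Gclc/Gclm ratio -0.18. With library size alone, after the median of all genes (0.17) was subtracted, Gclc was 0.000607 and Slc7a11 -0.026. The lowest count in any library was 2 for Nqo1 and at least 27 for the other members.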
